A study of Mus musculus with 12 samples.

Results

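Dhcr7, Fdft1, Cyp51 and Cyp39a1 encode 3 enzymes of cholesterol synthesis and 1 enzyme that hydroxylates oxysterols, and they are described here across a time course of BMP6 treatment in a mouse endothelial cell line. The 4 genes were chosen by name from the 8267 genes that could be named on the arrays, with their changes in these same comparisons already known. Their values are therefore given as a description, with no p-value. Calls among them are only counted beside the share over all genes, and nothing is read from those counts. All 4 were measured on every array, Cyp51 by 3 probes and each of the other genes by 1, and no filter on low values was applied.

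MECs, a cell line of mouse intraembryonic endothelium, received BMP6 for 4, 12 or 24 h, or a mock treatment as control. BMP6 is a secreted growth factor of the bone morphogenetic protein family. Each of the 4 groups held 3 independent biological replicates, giving 12 Agilent two-colour arrays, with RNA of the cells in Cy5 and a universal mouse reference RNA in Cy3. The labels give no dose of BMP6 and no time for the controls, which are shared by all 3 comparisons.

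A level below is a deposited log ratio, read as log2 of cells over reference RNA, and a change is a difference of such levels. Neither the base nor the sign of the ratio is given in the sources used here. With the sign turned, every value given as lower would be higher. With the natural logarithm, changes would be larger, so that the ratio of 0.538 given below for Cyp39a1 at 12 h would be 0.409. A level says how the cells compare with the reference RNA for that gene alone, so levels of different genes were not compared.

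Cholesterol is built from acetyl-CoA through mevalonate and squalene. Squalene synthase, encoded by Fdft1, joins farnesyl diphosphate units and commits the pathway to sterols. Cyp51 is the cytochrome P450 that demethylates lanosterol, and Dhcr7 is the reductase of the final step to cholesterol, whose substrate is also the precursor of vitamin D. Transcription of this pathway is under the sterol-regulated factor SREBP2, which works with the promoter-binding factors NF-Y and Sp1. Cyp39a1 is a cytochrome P450 of the other end of cholesterol metabolism: it hydroxylates oxysterols, the oxidised forms of cholesterol, on a route to bile acids, and is best known in the liver.

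The promoter sequences of Cyp51 and Dhcr7 are shown because both hold the short motifs to which NF-Y (CCAAT) and Sp1 (GGGCGG) bind, and that of Cyp51 also holds a sequence of the form ATCACNNCA, a loose spelling of the sterol regulatory element. The spellings were chosen after the promoters had been seen, and a match is a description of the letters only. The sequences are from RefSeq on GRCm38.p6, written 5′ to 3′ on the strand of the gene, and end at the base before the gene's start. They cover chr5:4104698-4104947 on the minus strand for Cyp51 and chr7:143829964-143830213 on the plus strand for Dhcr7. The table lists 3 starts for Dhcr7, and the one shown was chosen because it holds both motifs. No promoter of Fdft1 or Cyp39a1 was in the table, so those promoters were not examined for motifs. Capitals mark the motif matches on either strand.
Cyp51: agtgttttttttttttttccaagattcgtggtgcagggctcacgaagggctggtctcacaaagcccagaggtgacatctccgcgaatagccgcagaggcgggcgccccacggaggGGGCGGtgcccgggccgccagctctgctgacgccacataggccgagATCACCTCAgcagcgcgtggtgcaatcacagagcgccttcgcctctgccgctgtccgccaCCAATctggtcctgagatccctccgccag
Dhcr7: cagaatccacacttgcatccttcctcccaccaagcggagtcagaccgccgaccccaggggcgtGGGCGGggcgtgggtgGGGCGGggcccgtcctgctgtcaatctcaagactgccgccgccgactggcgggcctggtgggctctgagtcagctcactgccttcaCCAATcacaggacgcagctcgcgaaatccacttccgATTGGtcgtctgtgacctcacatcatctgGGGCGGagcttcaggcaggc

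In the Cyp51 promoter GGGCGG began at position -135, ATCACNNCA at -89 and CCAAT at -29, counted back from the gene's start. In the Dhcr7 promoter GGGCGG began at -187, -171 and -20, CCAAT at -85, and the reverse complement of CCAAT at -49. On either strand, CCAAT was in 33.8% and GGGCGG in 32.7% of all 32851 promoters of the same length. Counted by gene, with a match at any of its starts, these shares were 37.5% and 35.4% of 27025 genes. Of the 21 genes listed for sterol synthesis, 16 had a promoter in the table, and counted in the same way 15 of these held CCAAT and 15 held GGGCGG. ATCACNNCA was in 2.3% of all promoters, in 2.64% of genes and in 2 of the 16 sterol genes, Cyp51 and Msmo1. The stricter spelling ATCACNCCA was in 0.712% of all promoters, in 0.821% of genes and in 0 of the 16, which says only that these letters are not in these windows.

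Relative to mock-treated cells, the 4 genes lay lower on average at every BMP6 time, and they differed in size and timing. Cyp39a1 was lowest at 12 h, with a level 0.538 times that of control, and was near control at 24 h. Dhcr7 was lowest at 4 h, at 0.692 times control, and its distance from control was smaller at each later time. Fdft1 and Cyp51 were both lowest at 12 h, at 0.814 and 0.884 times control. The plot of array values shows these courses for each title number, the number 1 to 3 that the sample titles repeat in every group.

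**Figure D1:**
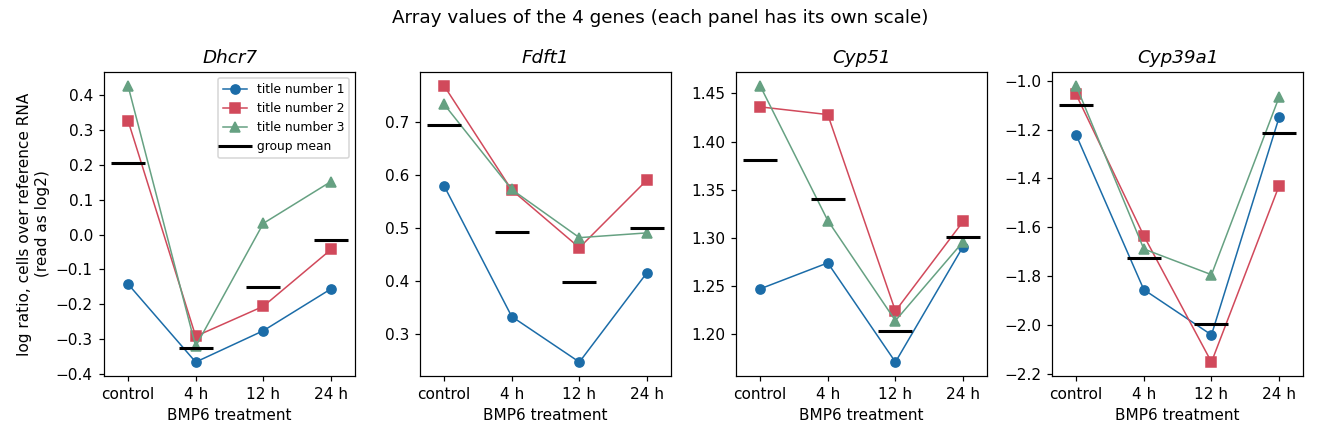
Level of each gene on each of the 12 arrays (log ratio of cells over reference RNA, read as log2) by group, with lines joining arrays of the same title number and black bars for group means. Each panel has its own scale. Cyp39a1 levels at 4 and 12 h lie between -2.15 and -1.634, below all control levels, and at 24 h they overlap the control.

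Fdft1 had levels of 0.58, 0.769 and 0.734 in the 3 control arrays, 0.333, 0.572 and 0.573 at 4 h, 0.247, 0.463 and 0.482 at 12 h, and 0.416, 0.591 and 0.491 at 24 h. All arrays at 4 and 12 h lay below all control arrays, and at 24 h the highest array passed the lowest control array. The group means were 0.69 ± 0.101 in control, 0.49 ± 0.138 at 4 h, 0.40 ± 0.131 at 12 h and 0.50 ± 0.0878 at 24 h (SD, n = 3 each). The changes from control were -0.20 at 4 h, -0.30 at 12 h and -0.20 at 24 h, each with an SE of 0.0941 when the title numbers were left out of the fit and 0.0466 when they were in it. From lowest to highest the order was 12 h, 4 h, 24 h and control, and each group overlapped its neighbour in that order. Within same-numbered arrays Fdft1 was lower in 3 of 3 pairs at all 3 times, with differences from -0.333 to -0.252 at 12 h. Without 4 h array 1, the lowest of its group, the 4 h change was -0.122 in the fit without title numbers. With title numbers in the fit and 1 array left out, the 4 h change stayed between -0.22 and -0.18.

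The narrow pair differences of Fdft1 go with its title numbers. Of its sum of squares over the 12 arrays, 56.4% lay between groups, 39.7% between title numbers and 3.9% in the rest. Over all named genes these shares were 23.4%, 55% and 21.6%.

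Cyp51, averaged over its 3 probes, had levels of 1.247, 1.436 and 1.458 in control, 1.274, 1.428 and 1.318 at 4 h, 1.171, 1.224 and 1.214 at 12 h, and 1.291, 1.317 and 1.296 at 24 h. Only the 12 h arrays lay wholly below the control arrays, and the 24 h arrays fell within the control range. The means were 1.38 ± 0.116 in control, 1.34 ± 0.0791 at 4 h, 1.20 ± 0.0282 at 12 h and 1.30 ± 0.014 at 24 h (SD, n = 3 each). The changes from control were -0.04 at 4 h, -0.18 at 12 h and -0.08 at 24 h (SE 0.0702 without and 0.0519 with title numbers). In the order 12 h, 24 h, 4 h and control, the 12 h arrays did not overlap those at 24 h, whereas 24 h overlapped 4 h and 4 h overlapped control. Control array 1 was the lowest control array, and without it the changes were -0.107 at 4 h and -0.146 at 24 h. Without control array 3 they were -0.002 and -0.04, and without control array 2 -0.013 and -0.051. The 4 h change was -0.008 without 4 h array 1 and -0.084 without 4 h array 2. These values are from the fit without title numbers. With title numbers in the fit and 1 array left out, the change ran from -0.09 to 0 at 4 h and from -0.13 to -0.04 at 24 h.

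The 3 Cyp51 probes did not give the same size. At 12 h probe 1 gave a change of -0.09, lower in 2 of 3 pairs, while probes 2 and 3 gave -0.22 and -0.23, each lower in 3 of 3 pairs. At 4 h probe 1 was higher than control by 0.05, and probes 2 and 3 were lower, with changes of -0.05 and -0.12. After the mean of each title number was removed, probe 1 correlated with probe 2 at r = 0.72 and with probe 3 at r = 0.35, and probes 2 and 3 at r = 0.7, over 12 arrays that share their RNA. The direction of Cyp51 at 4 h thus differed between probes, and at 12 h it was the same in all 3.

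**Figure D2:**
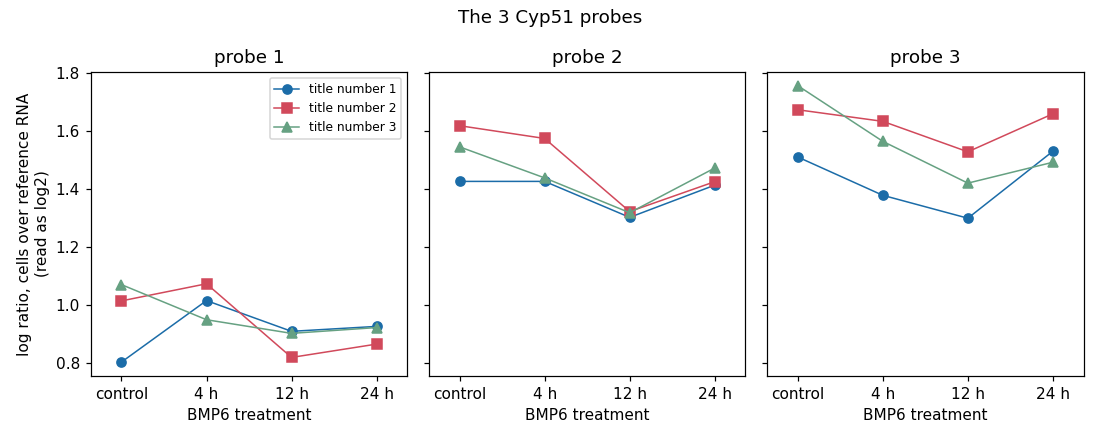
Level of each of the 3 Cyp51 probes on the 12 arrays (log ratio of cells over reference RNA, read as log2) by group, with lines joining arrays of the same title number. Probe 2 lies between 1.303 and 1.323 at 12 h, below its lowest control level of 1.427, while the 12 h levels of probe 1 lie within its control range.

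Dhcr7 had levels of -0.142, 0.327 and 0.427 in control, -0.366, -0.292 and -0.321 at 4 h, -0.276, -0.206 and 0.032 at 12 h, and -0.156, -0.043 and 0.152 at 24 h. The 4 h arrays lay below all control arrays, while those at 12 and 24 h overlapped the control range through control array 1. The means were 0.20 ± 0.304 in control, -0.33 ± 0.0373 at 4 h, -0.15 ± 0.161 at 12 h and -0.02 ± 0.156 at 24 h (SD, n = 3 each). The control spread was thus the widest of the 4 groups for this gene. The changes from control were -0.53 at 4 h, -0.35 at 12 h and -0.22 at 24 h (SE 0.14 without and 0.0887 with title numbers). In the fit without title numbers they were -0.703, -0.527 and -0.393 without control array 1, and -0.419, -0.243 and -0.108 without control array 3. With title numbers in the fit and 1 array left out, they ran from -0.65 to -0.44, from -0.48 to -0.28 and from -0.34 to -0.15.

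Dhcr7 was lower in 3 of 3 same-numbered pairs at each time, with pair differences of -0.224, -0.619 and -0.748 at 4 h and -0.014, -0.37 and -0.275 at 24 h. Pair 1 had the smallest difference at every time. From lowest to highest the order was 4 h, 12 h, 24 h and control, and only 4 h and 12 h did not overlap as neighbours. The 24 h level was higher than the 4 h level by 0.31, in 3 of 3 pairs. Groups held 61% of the sum of squares of Dhcr7, title numbers 25.9% and the rest 13.1%.

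Cyp39a1 had levels of -1.222, -1.057 and -1.021 in control, -1.854, -1.634 and -1.688 at 4 h, -2.039, -2.15 and -1.793 at 12 h, and -1.15, -1.429 and -1.067 at 24 h. All arrays at 4 and 12 h lay below all control arrays and below all 24 h arrays, and the 24 h arrays overlapped the control. The means were -1.10 ± 0.107 in control, -1.73 ± 0.115 at 4 h, -1.99 ± 0.183 at 12 h and -1.22 ± 0.19 at 24 h (SD, n = 3 each). The changes from control were -0.63 at 4 h, -0.89 at 12 h and -0.12 at 24 h (SE 0.117 without and 0.0922 with title numbers), so levels were 0.648, 0.538 and 0.923 times those of control.

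The pair differences of Cyp39a1 from control were -0.632, -0.577 and -0.667 at 4 h, and -0.817, -1.093 and -0.772 at 12 h. At 24 h they were 0.072, -0.372 and -0.046, lower in 2 of 3 pairs. Leaving out arrays or title numbers moved the 24 h change between -0.209 and 0.013, so its sign was not fixed. At 24 h the level was higher than at 12 h in 3 of 3 pairs, by 0.78 on average. Groups held 89.5% of the sum of squares of Cyp39a1, title numbers 4.53% and the rest 5.94%.

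**Figure D3:**
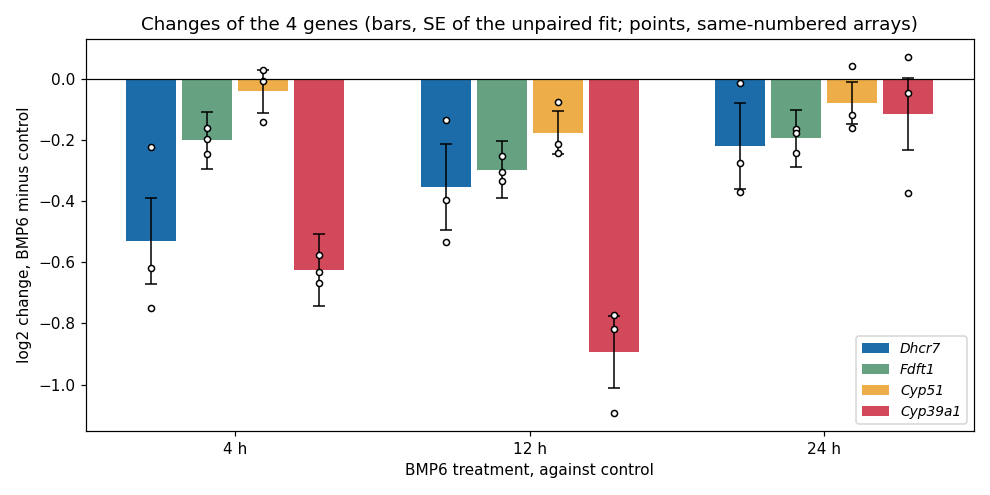
Change from control (log2, BMP6 minus control) of the 4 genes at 4, 12 and 24 h. Bars are differences of group means with the SE of the fit without title numbers, and open points are differences of same-numbered arrays. The bar of Cyp39a1 at 12 h reaches -0.89, and that of Cyp51 at 4 h is -0.04.

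The counts over all genes give the background for these changes. In a limma fit without title numbers (unpaired), the share of all genes called lower at an adjusted p under 0.05 was 0.0484% at 4 h, 0% at 12 h and 0% at 24 h, and 0 of the 4 genes were among them at any time. At an unadjusted p under 0.05 that fit had 614, 393 and 166 genes at these times, and the methods' t-test had 474, 297 and 175, of which 0, 1 and 0 passed after adjustment. As shares of all genes these were 7.43%, 4.75% and 2.01% unpaired and 5.73%, 3.59% and 2.12% by the methods' t-test. In the fit with title number as a block (paired), the share called lower was 3.75% at 4 h, 1.42% at 12 h and 0.0968% at 24 h. Of the 4 genes it called 3 at 4 h (Dhcr7, Fdft1 and Cyp39a1), 2 at 12 h (Fdft1 and Cyp39a1) and 0 at 24 h. With 1 array left out, the calls of Dhcr7 at 4 h and of Cyp39a1 at 4 and 12 h held in 12 of 12 paired fits. The call of Fdft1 held in 2 of 12 at 4 h and in 9 of 12 at 12 h. The share called higher in the paired fit was 2.27%, 0.472% and 0.0726% at these times, with 0 of the 4 genes. At an unadjusted p under 0.05 the paired fit held 21.3% of all genes at 4 h, 15.4% at 12 h and 7.94% at 24 h.

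Every BMP6 array lay below every control array for 3 of the 4 genes at 4 h, where 6.33% of all genes did so, for 3 at 12 h, where 4.14% did, and for 0 at 24 h, where 2.47% did. Because the genes were chosen on these contrasts, nothing is read from their counts.

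Of the 21 genes listed for synthesis of squalene and sterols, 12 were measured: Mvk, Mvd, Fdft1, Sqle, Lss, Cyp51, Lbr, Msmo1, Nsdhl, Ebp, Sc5d and Dhcr7. Without Fdft1, Cyp51 and Dhcr7 there were 9. Of these, 8, 6 and 6 lay below control at 4, 12 and 24 h, where 4334, 4189 and 4349 of all 8267 genes did. The 9 had median changes of -0.133, -0.046 and -0.071, beside medians over all genes of -0.006, -0.002 and -0.005. At each time 0 of the 9 passed in either limma fit. At an unadjusted p under 0.05 the paired fit had 5, 2 and 2 of the 9, where it held 21.3%, 15.4% and 7.94% of all genes. The unpaired fit and the methods' t-test had 0 of the 9. Their shares of all genes were 7.43%, 4.75% and 2.01%, and 5.73%, 3.59% and 2.12%.

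Among these 9, Ebp, the sterol isomerase, had a change of -0.22 at 4 h, with an adjusted p of 0.938 unpaired and 0.0949 paired. Lbr, the lamin B receptor that also has sterol reductase activity, had -0.21 at 4 h (adjusted p 0.158 paired). Mvd, which makes isopentenyl diphosphate from a mevalonate derivative, had -0.205 at 4 h (adjusted p 0.141 paired). Sqle, squalene epoxidase, was at -0.15 and -0.14 at 4 and 12 h, and Lss, lanosterol synthase, at -0.13 and -0.12. Mvk, mevalonate kinase, lay above control, at 0.03 at 4 h and 0.06 at 12 h, and Nsdhl, a sterol dehydrogenase, and Sc5d, a sterol desaturase, were within 0.03 of control at 4 h. The median change of the whole list of 12 was -0.141, -0.089 and -0.076 at 4, 12 and 24 h. In the unpaired fit it was -0.226, -0.227 and -0.171 without control array 1. It came closest to 0 in that fit without array 1 of the BMP6 group itself, at -0.057, -0.033 and -0.019.

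**Figure D4:**
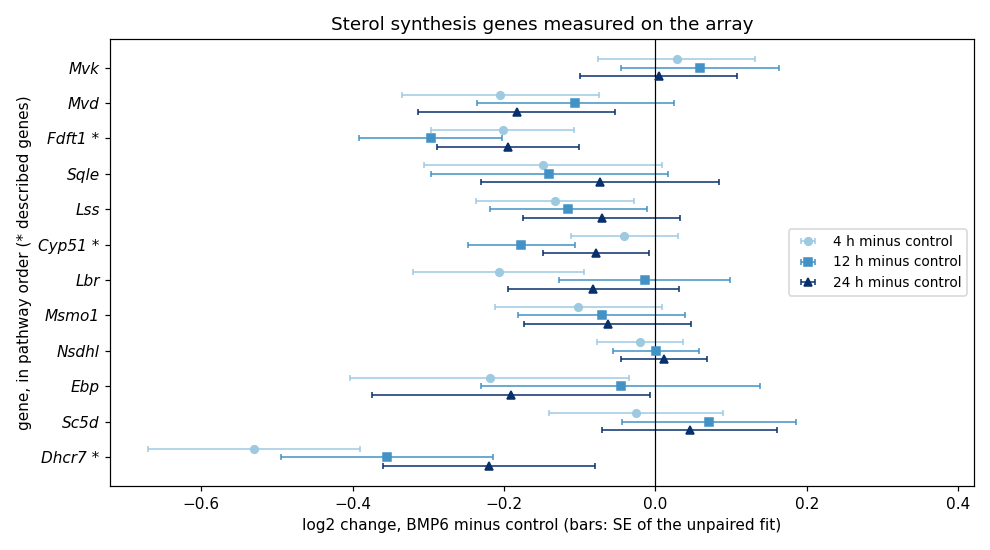
Change from control (log2, BMP6 minus control) of the 12 measured sterol synthesis genes in pathway order, with the SE of the unpaired fit as bars. Asterisks mark Fdft1, Cyp51 and Dhcr7. At 4 h 11 of the 12 lie below control, as do 4334 of all 8267 genes. Dhcr7, chosen with its changes known, has the lowest value at 4, 12 and 24 h.

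Sterol sensing and uptake genes gave 0 calls among 8 measured of 14 listed, in both limma fits at every time. At an unadjusted p under 0.05 the unpaired fit had 0, 0 and 1 of them at 4, 12 and 24 h (7.43%, 4.75% and 2.01% of all genes). The paired fit had 2, 1 and 2 (21.3%, 15.4% and 7.94%), and the methods' t-test 0 at each time (5.73%, 3.59% and 2.12%). Srebf2, which encodes SREBP2, was at 0.03, -0.07 and -0.01 relative to control at 4, 12 and 24 h. Scap, its escort protein, had changes of -0.06, -0.18 and -0.22. Stard4, a cholesterol carrier, had -0.265 at 4 h (adjusted p 0.696 unpaired and 0.065 paired).

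On the oxysterol side, 5 of 13 listed enzymes were measured. Beside Cyp39a1, Hsd3b7, a steroid dehydrogenase that acts on hydroxylated sterols in bile acid synthesis, was lower in the paired fit at 4 h (change -0.33, adjusted p 0.0351) and at 12 h (change -0.39, adjusted p 0.0362), and missed in the unpaired fit (0.859 and 1). Its levels were -1.163, -0.83 and -0.476 at 12 h, against -0.665, -0.502 and -0.125 in control, so the groups overlapped while 3 of 3 pairs were lower. The call was lost in 8 of 12 paired fits at 4 h and in 7 of 12 at 12 h when 1 array was left out, with adjusted p from 0.0199 to 0.13 and from 0.0217 to 0.181. Each of the 3 control arrays was among those whose loss ended the call at both times, as were 4 h arrays 1 and 3, 12 h arrays 2 and 3 and 24 h array 3 at 4 h, and all 12 h arrays and 24 h array 3 at 12 h. Over these paired fits the change ran from -0.41 to -0.26 at 4 h and from -0.42 to -0.35 at 12 h. In the unpaired fit it was -0.139 at 4 h without 4 h array 1 and -0.177 without control array 3. At 12 h the unpaired change was -0.222 without 12 h array 1 and -0.24 without control array 3. Cyp7b1, another oxysterol hydroxylase, was at 0.02, -0.05 and -0.07 relative to control, and Amacr and Cyp11a1 also did not pass.

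Of 12 listed genes of oxysterol receptors, efflux and ester storage, 7 were measured. Abca1, a cholesterol efflux pump and a target of the oxysterol-sensing LXR receptors, was lower at 12 h in the paired fit (change -0.44, SE 0.0688, adjusted p 0.0121, lower in 3 of 3 pairs), with an adjusted p of 1 unpaired. Its levels were -0.59, -0.372 and 0.068 at 12 h, against -0.236, 0.225 and 0.438 in control. The groups overlapped. The paired call was lost without control array 2, 12 h array 2 or 12 h array 3 (adjusted p from 0.00911 to 0.0811 over 12 fits). Over these paired fits the change ran from -0.48 to -0.38. In the unpaired fit it was -0.292 without control array 3. Nr1h3, which encodes an LXR receptor, had a change of -0.19 at 4 h and did not pass, and Gpr183, a receptor for hydroxylated oxysterols, had changes of 0.29 and 0.45 at 4 and 12 h (SE 0.333 unpaired) that did not pass either.

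Among the 11 cytochrome P450 genes measured, Cyp39a1 had the most negative change at 4 and 12 h. It was chosen with these changes known, so nothing is read from this rank. Of the 9 P450 genes other than Cyp39a1 and Cyp51, 2 lay below and 7 above control at 4 h, with a median change of 0.057. Over all 8267 genes 4334 lay below and 3931 above, with a median of -0.006. Cyp1b1, a P450 that oxidises steroids and aromatic compounds, was higher at 4 h in the paired fit (change 0.69, SE 0.139, adjusted p 0.0181) and missed in the unpaired fit (0.44). Its levels were 3.552, 3.393 and 3.188 at 4 h, against 2.926, 2.974 and 2.168 in control, with no overlap. The call was lost in 4 of 12 paired fits, without control array 2 or 3 or without 4 h array 1 or 3, with adjusted p from 0.0128 to 0.0961. Over these paired fits the change ran from 0.56 to 0.86. In the unpaired fit it was 0.428 without control array 3. Of the P450 electron donors, 0 of 3 measured passed. Cyb5a had changes of -0.22 and -0.24 at 4 and 12 h, which turned to 0.027 and 0.005 without control array 3 in the unpaired fit. Over the paired fits with 1 array left out, they ran from -0.29 to -0.09 and from -0.31 to -0.11.

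For each of the 4 genes, the 3 named genes of most similar course were found by Pearson correlation over the 12 arrays, after the mean of each title number had been removed, among 8263 other genes. These arrays share their controls and their title numbers, so the correlations are descriptions. Cyp39a1 was most like Plcb1, a phospholipase C (r = 0.997), Ech1, an enzyme of fatty acid oxidation (r = 0.974), and Mxra8, a membrane protein (r = 0.96). The changes of Plcb1 were -0.40, -0.55 and -0.08 at 4, 12 and 24 h, and those of Ech1 were -0.25, -0.33 and -0.07. Dhcr7 was most like Hadh (r = 0.979), also of fatty acid oxidation, Ugp2 (r = 0.979) and Rtn3 (r = 0.978), with Hadh at -0.30, -0.23 and -0.14. Fdft1 was most like Lbp (r = 0.962), Trpm7 (r = 0.956) and Rabgap1 (r = 0.946), and Cyp51 was most like Wbp1l (r = 0.968), Jak1 (r = 0.944) and Tenm3 (r = 0.939). With the means of the title numbers kept in, the r of these 12 genes with their gene ran from 0.042 to 0.961, and it was 0.733 for Wbp1l, 0.344 for Jak1 and 0.042 for Tenm3 with Cyp51. None of these 12 genes was in the sterol lists. The search left out the 4 genes and held 9 other sterol synthesis genes among the 8263, so nothing is read from this. The 4 genes, chosen with their changes known, correlated among themselves at r from 0.45 (Dhcr7 with Cyp51) to 0.78 (Fdft1 with Cyp39a1). Over the 8263 genes the lower and upper quartiles of r were -0.33 and 0.46 with Dhcr7 and -0.29 and 0.31 with Fdft1. They were -0.24 and 0.3 with Cyp51 and -0.28 and 0.33 with Cyp39a1.

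**Figure D5:**
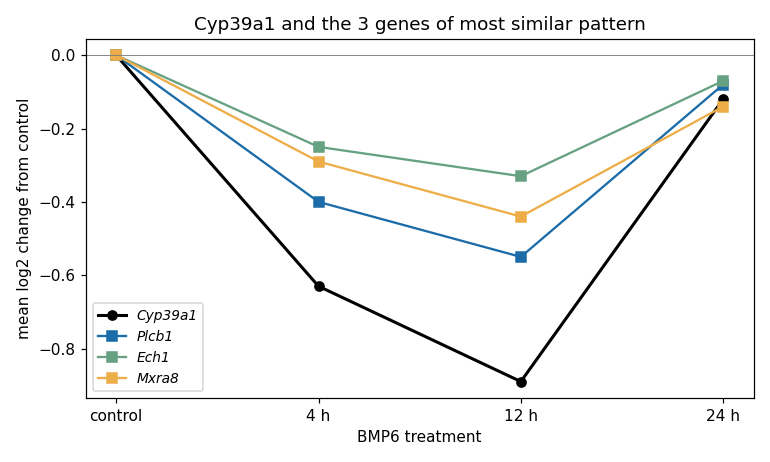
Mean change from control (log2) of Cyp39a1 and of the 3 genes of most similar course, Plcb1, Ech1 and Mxra8, at 4, 12 and 24 h of BMP6, with control at 0. All 4 lie lowest at 12 h, at -0.89, -0.55, -0.33 and -0.44, and between -0.14 and -0.07 at 24 h.

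The treatment and the cells were checked with gene lists. Of 7 listed early targets of BMP signalling 4 were measured, and 3 of them, Id1, Id2 and Id3, rose at all 3 times in the paired fit. That fit called 2.27%, 0.472% and 0.0726% of all genes higher at 4, 12 and 24 h. The change of Id1 was 0.975 at 4 h (adjusted p 0.00058 paired and 0.2 unpaired). Hey1 had changes of 0.03, 0.063 and 0.04 at 4, 12 and 24 h (adjusted p 0.785, 0.615 and 0.888 paired). In the unpaired fit 0 of the 4 passed at any time, with 3 at an unadjusted p under 0.05 at each time, and by the methods' t-test 1, 3 and 3. Over all genes the shares at that p were 7.43%, 4.75% and 2.01% unpaired and 5.73%, 3.59% and 2.12% by the methods' t-test. The call of Id2 at 24 h was lost without control array 1 or 2 or without 24 h array 2 or 3. The array medians lay between -0.044 and 0.002. All 5 measured of 10 listed endothelial markers lay below the reference RNA in every group, and Pecam1 and Cdh5 had control levels of -1.42 ± 0.241 and -1.62 ± 0.084 (SD, n = 3). Without spot intensities, whether they were detected is not stated here. For bulk RNA, fewer cells of a type and less RNA per cell cannot be told apart.

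Marker lists of other cell types were read beside the 4 genes. The mean level of the 4 measured of 8 hepatocyte markers, relevant because Cyp39a1 is best known in the liver, was -2.37 to -2.06 over the 4 h arrays and -2.36 to -2.19 over the 12 h arrays, against -2.27 to -2.06 in control, and 0 of the 4 passed in either fit. At an unadjusted p under 0.05 the unpaired fit had 0 of them at each time, the paired fit 2 at 12 h, where it held 15.4% of all genes, and the methods' t-test 0. Of the 4 measured of 8 fibroblast markers, 2 were lower in the paired fit at 4 h (Prrx1 and Col3a1) and 1 at 12 h (Prrx1). That fit called 3.75% and 1.42% of all genes lower at these times. All 4 lay below control at every time. At an unadjusted p under 0.05 the unpaired fit and the methods' t-test each had 2, 2 and 1 of them at 4, 12 and 24 h. The paired fit had 2 at each time. Over all genes these shares were 7.43%, 4.75% and 2.01% unpaired, 5.73%, 3.59% and 2.12% by the methods' t-test, and 21.3%, 15.4% and 7.94% paired. Prrx1 had changes of -0.49, -0.50 and -0.13 at 4, 12 and 24 h (adjusted p 0.00754, 0.0173 and 0.789 paired; 0.195, 0.533 and 1 unpaired), and its 12 h call was lost without control array 1 or 2 or without 12 h array 1 or 2. The mean level of the fibroblast markers was -0.16 to 0.39 at 4 h and -0.07 to 0.33 at 12 h, against 0.11 to 0.59 in control, and their part in the values of the 4 genes was not tested. The call of Col3a1 (change -0.24) held in 3 of 12 paired fits that left out 1 array. Of the other lists, Cnn1 of smooth muscle (4 of 5 measured) and Flt1 of endothelium were higher in the paired fit at 4 h, by 0.25 and 0.23, which held in 10 and 3 of 12 such fits. The paired fit called 2.27% of all genes higher at 4 h. Of the smooth muscle markers 3 lay above and 1 below control at 4 h. Of the 5 endothelial markers 2 lay above and 3 below control at 4 h (median change -0.082), and all 5 lay below at 12 and 24 h. Of the 8 listed blood cell markers 3 were measured, and 0 passed in either fit, with 2 at an unadjusted p under 0.05 at 24 h in both, where 2.01% of all genes were so unpaired and 7.94% paired.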

How the data were processed

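RNA of MECs was measured on 12 two-colour arrays in 4 groups of 3, grouped by sample title. The deposited values, read here as log2 ratios, are normalized ratios deposited by the authors, who per the labels used their own quantile-type algorithm. Every array held 20280 values with a mean of 0 and an SD of 0.607 to 0.688. Arrays correlated at 0.877 to 0.98, and the closest pair differed by a median of 0.061. No spot intensities were used here, so detection is not stated, and precision is limited by having 3 arrays per group.

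Gene names rest on an order of the array grid recovered from the data. Under it the first probes of 1831 genes with several probes correlated at r = 0.471 across genes, which are not independent, against 0.021 at the deposited row numbers. The order was itself inferred from probe pairs of the same gene, so this correlation is no independent check of the names. Of 11083 listed probes, 10576 had 1 symbol, giving 8267 genes as probe means, and 507 had several symbols and were left unnamed. Symbols were updated through GRCm38.p6 RefSeq identifiers for 10548 probes, and 28 kept their name.

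Two-sided moderated tests on all 12 arrays came from limma 3.58.1 under R 4.3.3 with Benjamini-Hochberg adjustment over 8267 genes, without a block (unpaired) and with title number as a block (paired). Both were tested on simulated data. Deviations from group means correlated at 0.443 to 0.695 between same-numbered arrays (18 pairs) and at -0.564 to 0.069 between others (36 pairs), so the numbers were taken to pair the samples. They stand in the titles only, without any statement of a shared culture or day. The methods' t-test, quantile normalization, median centring, single probes and left-out arrays were tried as alternatives. Those for named list genes and for paired calls with an array left out were chosen after seeing the data.

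The 4 genes and all lists were chosen with earlier results of these data known. The text names the 4 genes, the 3 most correlated genes of each, list genes that passed in a comparison with control, and the gene of largest change per list and comparison. The other members named from the sterol, sensing, oxysterol and marker lists were added after their values were seen.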

Additional observations from a re-analysis of the deposited data

Results flagged for a closer look

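Abca1, the cholesterol efflux pump, differed between BMP6 times: the change at 12 h was lower than that at 4 h by a log2 value of -0.34 (12 h minus 4 h). The difference itself passed in the paired limma fit (adjusted p 0.0491) and did not pass unpaired (adjusted p 0.999). Its levels were -0.59, -0.372 and 0.068 at 12 h, against -0.42, 0.093 and 0.439 at 4 h.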

How the results depend on the processing

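The number of genes called depended most on the replicate block. At 4 h against control 14 genes were called unpaired and 498 paired, with 27 after quantile normalization, 0 with only the compared groups in the fit and 0 by the adjusted methods' t-test. At 12 h the counts were 0 unpaired, 156 paired, 1 after quantile normalization and 1 by the adjusted methods' t-test. At 24 h they were 0 unpaired and 14 paired. For 24 h against 4 h they were 6 unpaired, 335 paired, 14 after quantile normalization, 0 with only the compared groups and 1 by the adjusted methods' t-test. Leaving 1 array out of the unpaired fit gave 3 to 51 genes at 4 h, 0 to 1 at 12 h, 0 at 24 h and 0 to 19 for 24 h against 4 h. Leaving out 1 title number in the paired fit gave 20 to 364 (139 without number 3), 3 to 92 (15 without number 1), 0 to 3 and 6 to 171 (34 without number 3), and 0 to 2 of the 9 other sterol genes at 4 h. Over arrays left out of the unpaired fit, the median of the 12 sterol genes ranged from -0.226 to -0.057 at 4 h. It ranged from -0.227 to -0.033 at 12 h and from -0.171 to -0.019 at 24 h. Cyp51 at 4 h was -0.041 as a mean of probes, 0.05 with probe 1 alone and -0.121 with probe 3 alone, and at 12 h it was -0.177 as a mean and -0.086 with probe 1 alone. Over left-out arrays or title numbers, Cyp51 at 4 h ran from -0.107 to 0.009, Cyp39a1 at 24 h from -0.209 to 0.013, Cyb5a from -0.406 to 0.027 at 4 h and from -0.428 to 0.005 at 12 h, Cyp4f39 at 24 h from -1.03 to 0.017 and Gpr183 at 4 h from -0.093 to 0.562 over arrays and to 0.622 over title numbers. These ranges left arrays out of the unpaired fit and title numbers out of the paired fit. Gpr183 was negative without control array 2 and without title number 2. Cyp4f39 was positive without control array 1, and Cyb5a without control array 3, both in the unpaired fit. With 1 array left out of the paired fit, Cyp4f39 at 24 h ran from -0.69 to -0.19 and Gpr183 at 4 h from -0.08 to 0.58. Cyb5a stayed negative at 4 and 12 h in those fits. The causes were not tested. Dhcr7 and Fdft1 at all 3 times, Cyp39a1 at 4 and 12 h and Cyp51 at 12 and 24 h kept their sign in every alternative run.

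Each limma p-value rests on a spread estimated over all 12 arrays, 3 per group, and moderated across genes. In the unpaired fit it is the spread between arrays of a group. In the paired fit it is what remains after the title numbers are also removed. The methods' t-test used only the arrays of the compared groups. The unpaired fit left 8 and the paired fit 6 residual degrees of freedom. A fold rests on the unstated base of the log, a direction on its unstated sign, and a gene name on the recovered grid order.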

Other observations

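Pathways next to sterol synthesis were also read. Of 11 listed fatty acid synthesis genes, which SREBP factors also control, 8 were measured, and 6 of the 8 lay below control at each of 4, 12 and 24 h, with median changes of -0.109, -0.113 and -0.015. Over all 8267 genes 4334, 4189 and 4349 lay below, with medians of -0.006, -0.002 and -0.005. None of the 8 passed in either limma fit, with 2, 2 and 1 at an unadjusted p under 0.05 unpaired, 4, 4 and 3 paired, and 0, 1 and 1 by the methods' t-test. Over all genes the shares at that p were 7.43%, 4.75% and 2.01% unpaired, 21.3%, 15.4% and 7.94% paired and 5.73%, 3.59% and 2.12% by the methods' t-test. Acly, which makes cytosolic acetyl-CoA, had a change of -0.225 at 4 h (SE 0.0782, adjusted p 0.418 unpaired and 0.0603 paired) and of -0.24 at 24 h. Fads2, a fatty acid desaturase, had -0.25 at 12 h (adjusted p 0.711 unpaired and 0.0783 paired).

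Of 8 listed genes of the isoprenoid branch, which draws on the same farnesyl diphosphate as Fdft1, 4 were measured and 0 passed in either limma fit or at an unadjusted p under 0.05 in the limma fits and the methods' t-test. Their medians were 0.032, 0.015 and -0.036 at 4, 12 and 24 h. Coq2, of ubiquinone synthesis, had -0.12 at 4 h, and Pggt1b, of protein prenylation, 0.05 at 12 h and 0.08 at 24 h. Cyb5r3, of the P450 electron donors, had 0.175 at 24 h (SE 0.105 unpaired). Cyp4f39, with the largest change of a P450 gene at 24 h, had -0.48 with a control SD of 1.05 (n = 3).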
